A study of Mus musculus with 4 samples.

Results

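The genes of the mitochondrial respiratory chain and of the ATP synthase were compared between islets of wild type mice and of mice with a Bmpr1a knockout. The group held every gene whose symbol on the array begins with Nduf, Uqcr, Atp5 or Cox followed by a digit, and Sdha to Sdhd. This gave 94 of the 17711 named genes on the array. Each probe carries a detection p-value that sets it against negative control beads, and the test took in probes under 0.05 on both wild type or both knockout arrays. By that filter 87 of the 94 genes were tested, among 9352 tested genes in all, with 114 of their 137 probes. Complex I was covered by 31 of 32 genes, complex II by 3 of 4, complex III by 7 of 7, complex IV by 14 of 18, complex V by 16 of 16 and the assembly factors by 16 of 17.

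The respiratory chain moves electrons from NADH (complex I) and succinate (complex II) through complex III to oxygen at complex IV and pumps protons across the inner mitochondrial membrane, and the ATP synthase (complex V) uses the proton gradient to make ATP. In the beta cell, ATP made this way closes potassium channels of the cell membrane, which leads to calcium entry and insulin release. Most subunits are encoded in the nucleus, and a smaller set, not measured here, is encoded by mitochondrial DNA.

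Total RNA of isolated islets from 12-week-old mice on a C57BL/6 background was hybridised as biotin-labelled cRNA to 4 Illumina bead arrays, with 2 from wild type animals and 2 from animals whose gene for the bone morphogenetic protein receptor Bmpr1a was knocked out under Pdx1 control. Pdx1, a transcription factor, is made in the embryonic pancreas and stays on in beta cells, so islet cells that never expressed it keep the gene. The labels do not say whether wild type mice carried a Cre transgene, nor whether the arrays of a genotype hold separate mice. The p-values thus cover the spread of these samples alone, and that spread may be technical, and 2 arrays per genotype limit the precision of every value.

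Between 14785 and 16171 of 46632 probes were detected per array. The Bmpr1a probe read 793 and 851 in wild type and 887 and 687 in knockout islets as raw intensity, and its normalized log2 change of -0.28 ± 0.14 (SE) was not past the threshold (adjusted p = 0.204). Where this probe lies relative to the deleted part is not known here, so it does not check the labels. All 8 measured beta cell markers were detected in both genotypes, with summed raw intensities of 90615 to 94853 in wild type and 104039 to 117304 in knockout islets. Of the 8 beta cell markers, G6pc2 and Slc2a2 rose (1.13 and 0.56) and 0 fell. That share of 25% lay beside 25.5% of all tested genes, and the list median was 0.06. All 12 measured lymphocyte markers fell, from sums of 15229 to 16057 in wild type to 1308 to 1662 in knockout islets. Of 4 tested alpha cell markers Slc38a5 and Etv1 fell (-1.55 and -1.27) and 0 rose, with a list median of -0.65. The other tested alpha cell markers did not pass. Of 6 tested macrophage markers 1 rose and 2, Lyz1 and Lyz2, fell (50%, above the 25.5% of all tested genes), with a list median of 0.07. Of 3 tested duct markers 1 rose and 1 fell, with a list median of -0.04. Of 6 tested endothelial and 3 tested stromal markers 0 passed, with list medians of 0.35 and 0.54. Of 11 tested acinar markers 2 fell and 0 rose (18.2%, below the share over all tested genes), yet the list median was -0.71. The list's sums were 74752 to 90869 in wild type and 66008 to 69291 in knockout islets. In these bulk samples, fewer cells of a type and less RNA per cell cannot be told apart, and the part of other cells in the values below was not tested.

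Few respiratory chain and ATP synthase genes passed the test for a change between genotypes. In the limma fit, with 0.05 as the limit on the adjusted p, 4 of 87 were higher in knockout islets (Cox7b2, Ndufaf7, Atp5o and Ndufv3) and 2 were lower (Uqcrq and Atp5e). Of the 4, Cox7b2, Ndufaf7 and Atp5o were detected on 0 wild type arrays and both knockout arrays, so they passed the detection filter only through the genotype in which they were high, and their calls are not independent of that filter. These 6 genes are 6.90% of the members, while 25.5% of all tested genes passed, 14.5% higher and 11.0% lower. The median change, knockout minus wild type on the normalized log2 scale, was 0.02 over the members and 0.06 over all tested genes. The members also spread less, with a median absolute change of 0.156 against 0.276, and 8 of 87 (9.20%) had a fitted change above 0.5 in size against 26.9% of all tested genes. These shares and medians are a description, and no test of the difference between the members and other genes was made.

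The members were brighter than most genes, with raw intensities above 500 on all arrays for 73 of 87. Among genes with a mean normalized level above 9, 2 of 73 members passed (2.74%, Ndufv3 and Atp5e), beside 19.5% of all such genes, 12.4% higher and 7.10% lower. The direction of calls depended on the scaling. With median scaling in place of quantile normalization, which moved the median of all tested genes from 0.06 to 0.25, 13 members were higher and 1 was lower. With cyclic loess 4 were higher and 1 was lower.

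**Figure D1:**
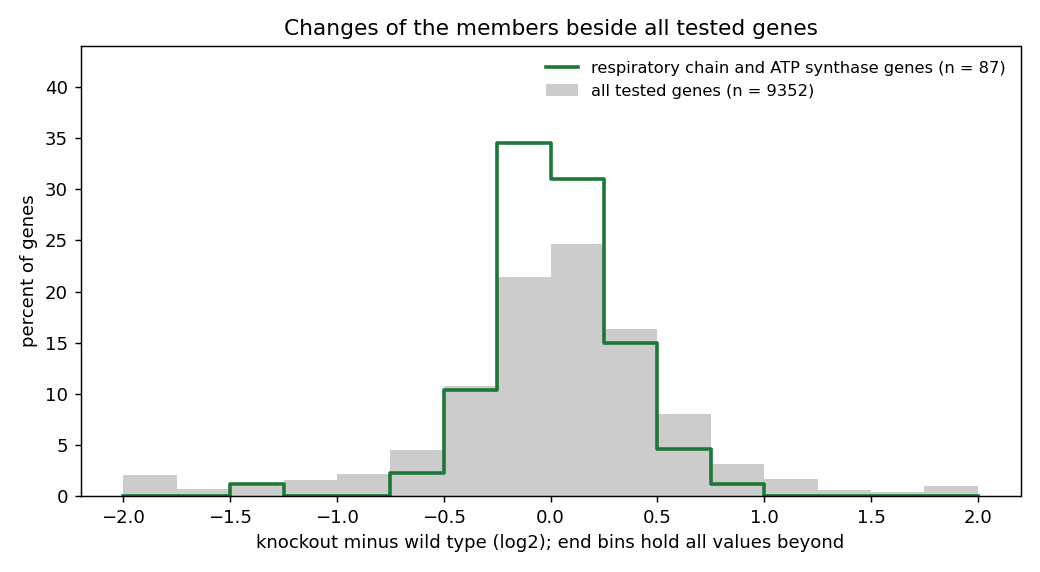
Distribution of the changes between genotypes (horizontal axis, knockout minus wild type, normalized log2) as percent of genes (vertical axis) for the 87 tested respiratory chain and ATP synthase genes (line) and all 9352 tested genes (grey). The members gather closer to 0, with a median absolute change of 0.156 against 0.276.

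The intervals bounded the change to within 1 log2 unit for most members, but not to within 0.5. The median standard error was 0.129 in the members and 0.139 in all tested genes. The 95% interval of the change lay within 1 log2 unit of 0 in 82 of 87 members (94.3%) and in 79.9% of all tested genes. It lay within 0.5 of 0 in 43 members (49.4%) and in 29.0% of all tested genes. The 5 members whose interval reached beyond 1 unit were Uqcrq, Uqcrfs1, Ndufb10, Cox7b2 and Ndufaf7. In 58 of 87 members (66.7%) the normalized values of the genotypes did not overlap, with the knockout above in 31 and below in 27, while 68.5% of all tested genes did not overlap, 39.8% above and 28.7% below. Among bright genes 48 of 73 members did not overlap, beside 70.3% of all bright genes, 42.2% above and 28.2% below. The members' share without overlap lay near that of the array.

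**Figure D2:**
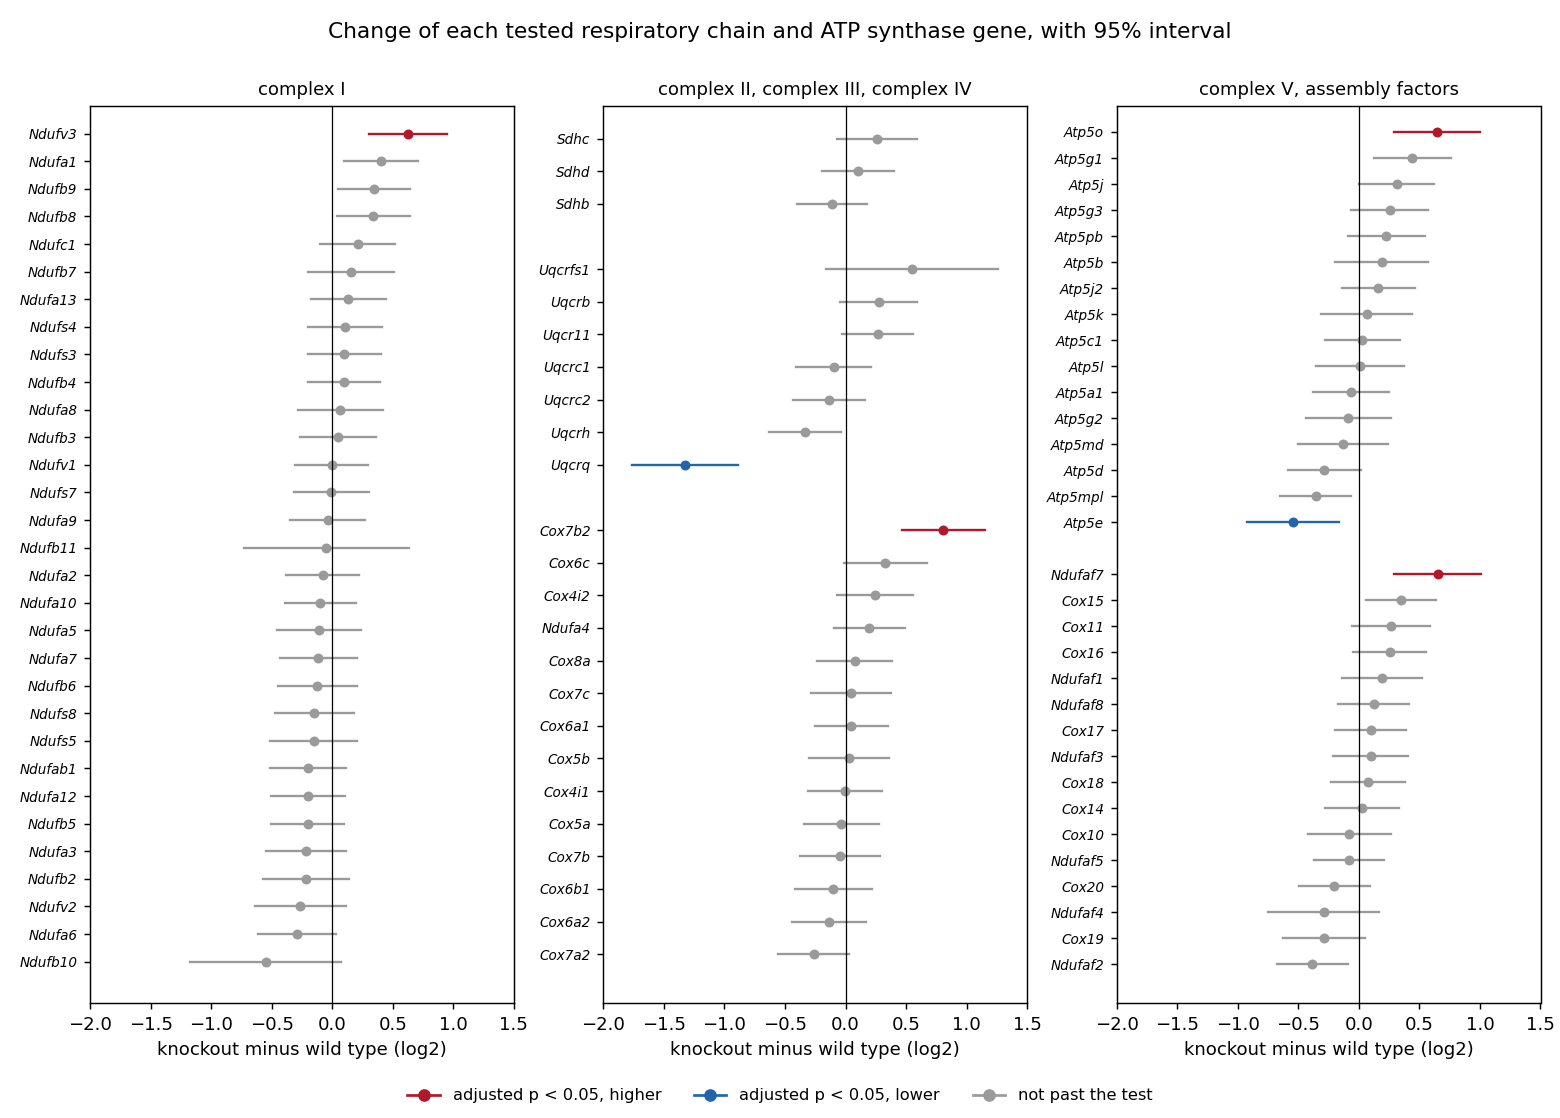
Change of each tested gene between genotypes (horizontal axis, knockout minus wild type, normalized log2) with its 95% interval from limma, 1 row per gene, grouped by complex and ordered by size. Coloured points passed the test (4 higher, 2 lower); the points of Atp5o, Cox7b2 and Ndufaf7 are fitted values of probes that were not well above background on the wild type arrays, for which the text gives bounds.

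Complex I takes electrons from NADH. Of its 31 tested subunits 1 rose, 0 fell and 30 did not pass. Their median change was -0.05, with a range of -0.55 to 0.62, and 4 were below an unadjusted p of 0.05 in limma. That limit was met by 15 of 87 members and by 3694 of all 9352 tested genes. The 5 measured core subunits, which hold the flavin and iron-sulfur centres or lie next to them, had changes between -0.26 and 0.10. Ndufv1, the subunit that binds NADH, read 3273 and 3271 in wild type and 3719 and 3588 in knockout islets as raw intensity, a change of -0.01 ± 0.12 (SE, adjusted p = 0.979) once normalized. The normalized values of the genotypes overlapped. The other core subunits had changes of 0.10 (Ndufs3), -0.01 (Ndufs7), -0.15 (Ndufs8) and -0.26 (Ndufv2), and none of these 4 passed in limma. Ndufs1, the largest core subunit, had 1 probe, which read 53.7 and 61.3 in wild type and 60.4 and 61.6 in knockout islets, was detected on no array and was not tested.

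Ndufv3, an accessory subunit beside the NADH-binding module, was the complex I gene that rose. Its leading probe, the brightest tested probe of a gene, read 6417 and 6106 in wild type and 9959 and 10107 in knockout islets. Both knockout arrays were above both wild type arrays. On the normalized scale Ndufv3 rose from 12.66 ± 0.12 to 13.29 ± 0.08 (SD, n = 2), by 0.62 ± 0.13 (SE, adjusted p = 0.0200), or 1.54-fold. Without wild type 1 or wild type 2 the call was lost. Those fits leave a lone wild type array, and most calls over all tested genes were lost in them too. The same holds for the other genes below whose calls ended without a wild type array. A dim Ndufv3 probe read 121 and 117 against 114 and 158 and did not pass (adjusted p = 0.321).

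Next in size among the rises was Ndufa1, a small membrane subunit, which read 9424 and 10936 in wild type and 13045 and 13697 in knockout islets. The genotypes did not overlap, yet the change of 0.41 ± 0.13 (SE) did not pass (adjusted p = 0.0618). Ndufa1 passed under 5 of 13 alternatives, namely the authors' values, no background correction, an offset of 50, the stricter detection filter and an intensity trend (adjusted p = 0.0196 to 0.0487). Ndufb8, another membrane arm subunit, had a leading probe at 9864 and 10568 against 12621 and 13160 and a change of 0.34 (adjusted p = 0.0931). Its dimmer probe read 151 and 155 against 208 and 208, past the test at 0.65 (adjusted p = 0.0128). Dropping either wild type array ended that call (adjusted p = 0.0909 and 0.0774). At the low end, the membrane arm subunit Ndufb10 read 2397 and 3037 in wild type and 1704 and 2654 in knockout islets, so the raw values overlapped, while the normalized ones did not. Its change of -0.55 ± 0.26 did not pass (adjusted p = 0.165), but without knockout 2 it was -0.94 and passed (adjusted p = 0.0150). Ndufa6, a subunit of the matrix arm, had a change of -0.29 (adjusted p = 0.157).

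Complex II, the succinate dehydrogenase, is shared with the citric acid cycle, and 0 of its 3 tested genes passed in limma, with 0 below an unadjusted p of 0.05. Sdhb, the iron-sulfur subunit, read 985 and 1043 in wild type and 1116 and 1038 in knockout islets and had a change of -0.11 ± 0.12 (SE, adjusted p = 0.536). The raw values overlapped, and with median scaling the change had the other sign (0.19, adjusted p = 0.421). The membrane anchor Sdhc read 2594 and 2454 against 3656 and 3176, with both knockout arrays higher, and had a change of 0.26 ± 0.14 (adjusted p = 0.201). The other anchor, Sdhd, read 4150 and 4665 against 5487 and 5301 and had a change of 0.10 ± 0.12 (adjusted p = 0.564). The 1 probe of Sdha, the flavin-containing catalytic subunit, was detected on no array, at 50.1 and 53.9 in wild type and 66.4 and 56.7 in knockout islets.

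Raw values of the tested genes ran higher on the knockout arrays. Relative to the wild type mean, their median was 0.16 and 0.09 log2 units higher on knockout 1 and 2, and that of the members 0.16 and 0.16. Over all 46632 probes, detected or not, the median raw intensity was 81.5 and 76.8 on the wild type and 79.1 and 79.6 on the knockout arrays. After quantile normalization the members' medians were -0.02 and 0.05 on the knockout arrays. The raw intensities given for single genes are not normalized, and the changes are.

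Complex III passes electrons from ubiquinol to cytochrome c. Of its 7 tested genes 1 fell and 0 rose, with a median change of -0.10. Of the 7, 2 were below an unadjusted p of 0.05, beside 3694 of all 9352 tested genes. Uqcrq, a small subunit bound to cytochrome b, had the largest change of all the members. It read 253 and 334 in wild type and 158 and 147 in knockout islets, and every knockout value was below every wild type value. On the normalized scale Uqcrq fell from 7.91 ± 0.32 to 6.58 ± 0.10 (SD, n = 2), a change of -1.33 ± 0.18 (SE, adjusted p = 0.00436), or 2.51-fold lower. The call held under all 13 alternatives run (adjusted p = 0.0026 to 0.0261), although the change was -0.87 with the authors' processed values. Another Uqcrq probe was detected on no array, at 54.6 to 57.7, so the fall rests on 1 dim probe. In members with several tested probes, 5 of 14 dim further probes lay on another side of the threshold from the leading one. Whether this probe stands for the whole Uqcrq transcript was not tested.

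The other 6 complex III genes did not pass. The core proteins Uqcrc1 and Uqcrc2, which face the matrix, had changes of -0.10 and -0.14 (adjusted p = 0.601 and 0.444). Uqcrh, the acidic hinge protein near cytochrome c1, read 6665 and 7272 against 6032 and 6070, with no overlap, and its change of -0.34 ± 0.12 did not pass (adjusted p = 0.0926). Uqcrb, a small subunit, read 3983 and 4248 against 5453 and 5836, again with no overlap but in the other direction, and had a change of 0.28 ± 0.13 (adjusted p = 0.170). Uqcrfs1, the Rieske iron-sulfur protein, read 130 and 94.2 against 119 and 156, close to background. Its genotypes overlapped, and 0.55 ± 0.29 did not pass (adjusted p = 0.216).

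Complex IV, cytochrome c oxidase, reduces oxygen. Of its 14 tested genes 1 rose and 0 fell, with a median change of 0.04. The 11 subunits found in most tissues held 0 calls in limma and 0 below an unadjusted p of 0.05, with changes from -0.26 to 0.33. Cox4i1, an early-assembled subunit, read 11088 and 12266 in wild type and 11244 and 12062 in knockout islets. The raw knockout values lay between the raw wild type values, while the normalized knockout values lay on either side of the wild type ones. The change was -0.004 ± 0.13 (SE, adjusted p = 0.984) with a 95% interval of -0.31 to 0.30. Cox6c, the subunit with the largest rise of these 11, read 15524 and 18724 against 19920 and 22259, with no overlap and a change of 0.33 ± 0.14 (adjusted p = 0.136). Cox7a2 had a change of -0.26 (adjusted p = 0.156) and Ndufa4, first assigned to complex I and now counted with complex IV, by 0.20 (adjusted p = 0.276).

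Several complex IV subunits have isoforms that differ between tissues. The general forms Cox6a1, Cox6b1 and Cox8a had changes of 0.05, -0.10 and 0.08, and none of them passed in limma (adjusted p = 0.800, 0.598 and 0.693). Cox6a2, known as the heart and muscle form, was well detected in islets. It read 4228 and 4380 in wild type and 4757 and 4107 in knockout islets and had a change of -0.14 ± 0.13 (adjusted p = 0.449). Of 7 muscle and brown fat markers on the array, Ckm, Mb, Tnnc2 and Ucp1 were detected on no array. Acta1 (333 and 351 in wild type), Myh4 and Cidea were tested. Cidea was not well above background on the knockout arrays. Its mean was at least 1.34-fold lower there, a bound without sampling error (limma adjusted p = 0.0158). The 7 summed to 865 to 878 in wild type and 740 to 782 in knockout islets. Cox4i2, a form known from lung, read 127 and 119 against 134 and 130 and had a change of 0.24 (adjusted p = 0.209). Cox7b2, a form known from testis, read 76.9 and 70.4 against 116.2 and 106.9 and was not well above background on the wild type arrays. Its knockout mean was at least 1.10-fold higher, a bound without sampling error (limma adjusted p = 0.0102). Dropping either wild type array ended the call (adjusted p = 0.0656 and 0.0721). Cox6b2, Cox8b and Cox8c were detected on no array and Cox7a1 on 1 array of each genotype, and they were not tested.

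**Figure D3:**
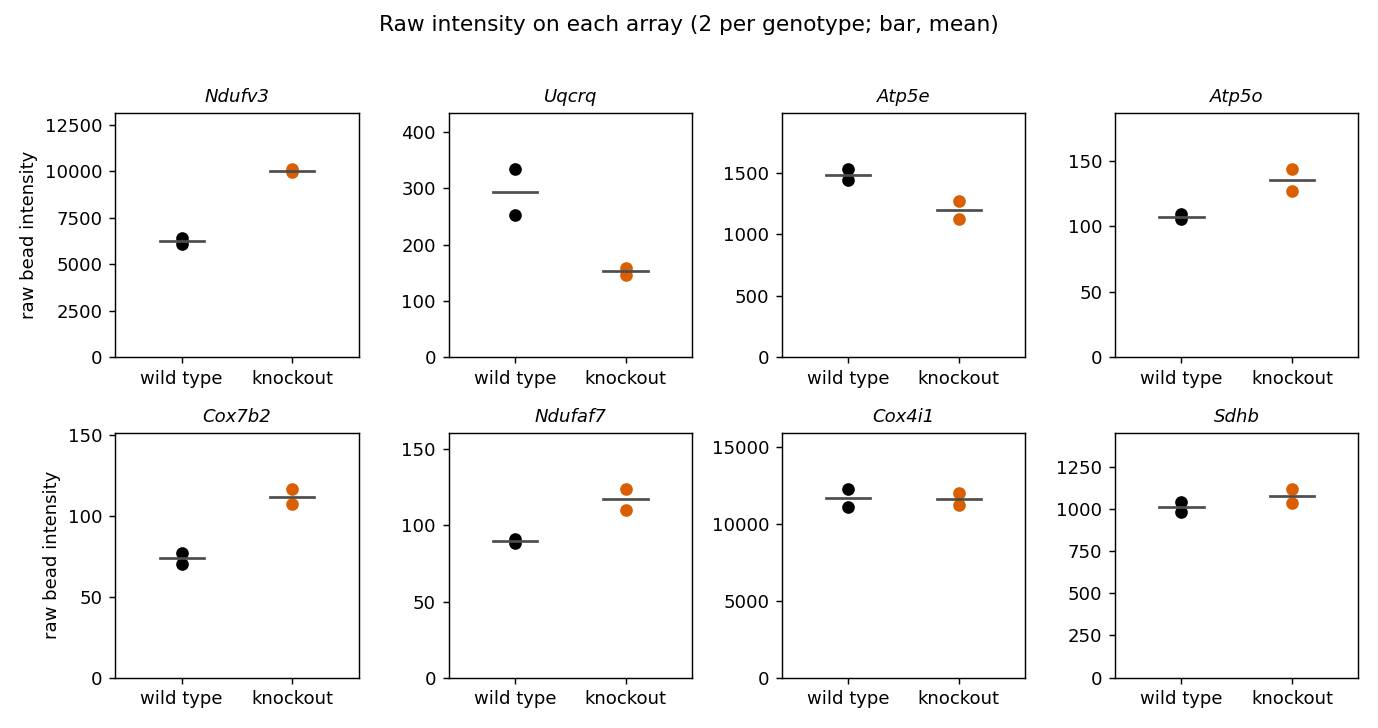
Raw bead intensity (vertical axes, from 0) on each array for the 6 members that passed the test and for Cox4i1 and Sdhb, with 2 points per genotype and a bar at their mean. Wild type and knockout points do not overlap in the 6 genes that passed, and overlap in Cox4i1 and Sdhb.

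Complex V makes ATP in a head that is turned by a ring of c subunits in the membrane. Of its 16 tested genes 1 rose and 1 fell, with a median change of 0.05. Of the 16, 5 were below an unadjusted p of 0.05, beside 3694 of all 9352 tested genes. Atp5e, the epsilon subunit of the central stalk, read 1528 and 1441 in wild type and 1124 and 1273 in knockout islets. Both knockout arrays were below both wild type arrays, and the change was -0.55 ± 0.16 (SE, adjusted p = 0.0488), or 1.46-fold lower. This call lay next to the threshold. It was lost without wild type 1 (adjusted p = 0.232), wild type 2 (0.126) or knockout 1 (0.135), with median scaling (-0.23, adjusted p = 0.302), with cyclic loess, with the replicate block and without the filter on dim probes. The other 4 head and central stalk genes did not pass. They were Atp5a1 (alpha) at -0.06, Atp5b (beta) at 0.19, Atp5c1 (gamma) at 0.03 and Atp5d (delta) at -0.28.

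The c ring protein is encoded by Atp5g1, Atp5g2 and Atp5g3, which differ in their import sequences and give the same mature protein. Atp5g1 read 4768 and 4963 in wild type and 7850 and 6710 in knockout islets. Both knockout arrays were higher, and the change of 0.44 ± 0.13 (SE) fell just short of the threshold (adjusted p = 0.0536). It passed with the authors' values, with no background correction, with an offset of 50, with median scaling, with the stricter detection filter, with an intensity trend and without knockout 2 (adjusted p = 0.0153 to 0.0485). Atp5g3 read 16737 and 19621 against 22286 and 19805 and had a change of 0.25 (adjusted p = 0.197), and Atp5g2 by -0.09 (adjusted p = 0.690).

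Of the peripheral stalk, which holds the head in place, 3 genes were tested and Atp5o rose. Atp5o read 109 and 106 in wild type and 127 and 143 in knockout islets, was not well above background on the wild type arrays, and was at least 1.54-fold higher in knockout islets (adjusted p = 0.0242). The call ended without wild type 1 (adjusted p = 0.122), wild type 2 (0.124) or knockout 2 (0.0553), and with no filter on dim probes (0.0551). The other stalk genes, Atp5j and Atp5pb, had changes of 0.31 and 0.23 (adjusted p = 0.123 and 0.247). Of 5 small membrane subunits 0 passed in limma. Atp5mpl among them read 6348 and 6728 against 5722 and 5653 and had a change of -0.36 (adjusted p = 0.0781).

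The assembly factors build the complexes and are not part of them. Of 16 tested 1 rose and 0 fell, with a median change of 0.09. Of the 16, 3 were below an unadjusted p of 0.05, beside 3694 of all 9352 tested genes. Ndufaf7, a methyltransferase that modifies a core subunit of complex I, read 90.8 and 88.7 in wild type and 124 and 110 in knockout islets. It was not well above background on the wild type arrays. Its knockout mean was at least 1.19-fold higher, a bound without sampling error (limma adjusted p = 0.0253). The call ended without wild type 1 (adjusted p = 0.131), wild type 2 (0.118) or knockout 1 (0.0634), and with no filter on dim probes (0.0599). Ndufaf2, a complex I factor, read 2094 and 2328 against 2065 and 1865, below the wild type on both arrays, and had a change of -0.39 ± 0.12 (adjusted p = 0.0632). It passed under 6 of 13 alternatives, namely the authors' values, no background correction, an offset of 50, no filter, the stricter detection filter and an intensity trend (adjusted p = 0.0181 to 0.0497). Cox15, which makes the heme of complex IV, read 398 and 416 against 567 and 542 and had a change of 0.35 ± 0.12 (adjusted p = 0.0807). Cox19, a copper-handling factor, had a change of -0.29 (adjusted p = 0.172).

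Probes of the same gene were compared where more than 1 was tested. In 21 genes, 27 further probes were tested beside the leading one, and 19 had its sign and 8 the opposite sign. In bright probes the absolute difference from the leading probe had a median of 0.07 and a maximum of 0.29, and 0 of 13 lay on another side of the threshold. In dim probes the median difference was 0.29, and 5 of 14 lay on another side. Counted by probe, 10 of 114 members passed (5 higher, 5 lower), beside 25.5% of all tested probes, 14.1% higher and 11.4% lower.

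The 4 further probes that passed were dim, 1 higher (Ndufb8) and 3 lower. The dim Atp5a1 probe read 193 and 242 in wild type and 170 and 155 in knockout islets and had a change of -0.61 (adjusted p = 0.0493), where the leading probe, at 5578 and 5944 against 5928 and 6338, was at -0.06. Dropping each of the 4 arrays in turn ended the Atp5a1 call (adjusted p = 0.0580 to 0.240), as did median scaling, the authors' values, no filter, the intensity trend and the replicate block (adjusted p = 0.0540 to 0.129). Ndufab1, an acyl carrier protein and complex I subunit, had 5 tested probes with changes from -0.60 to 0.29. Its bright leading probe was at -0.20, and a probe at 140 and 141 against 113 and 104 was at -0.60 (adjusted p = 0.0271). Ndufaf3, a complex I factor, was at 0.10 with its leading probe, whereas a dimmer probe fell from 381 and 387 to 324 and 285 (-0.53, adjusted p = 0.0295). For the dim probes of Ndufab1 and Ndufaf3 the calls ended when either wild type array or knockout 2 was dropped (adjusted p = 0.0646 to 0.157). The Ndufaf3 call also ended with median scaling (-0.31, adjusted p = 0.198), and the Ndufab1 call with the authors' values (0.0522) and with no filter on dim probes (0.0535). Probes with opposite signs but no call were also found for Atp5k, Atp5l, Atp5pb, Cox7c, Ndufa10 and Ndufs3.

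**Figure D4:**
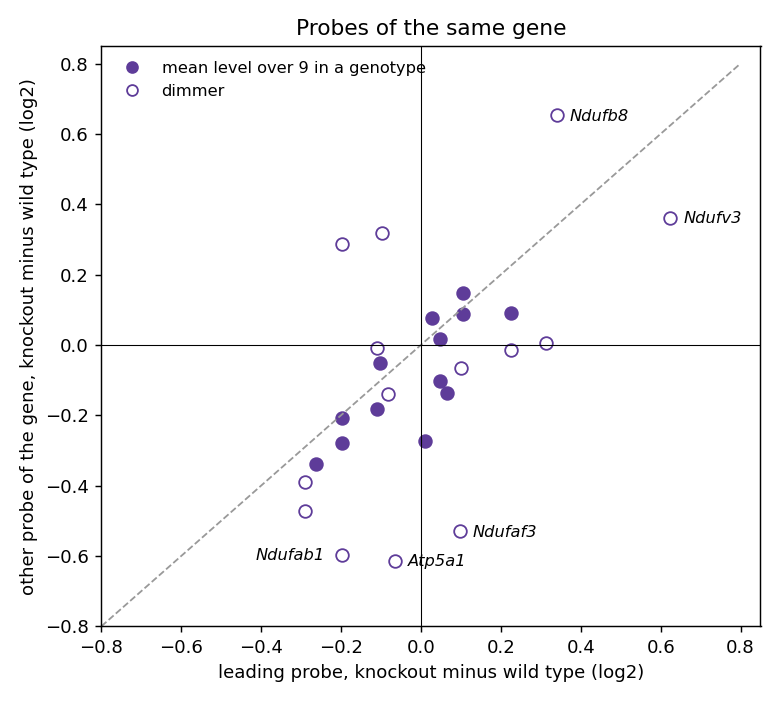
Change of each further tested probe (vertical axis, knockout minus wild type, normalized log2) against that of the leading probe of the same gene (horizontal axis), for 27 probes of 21 genes, with the line of equal change. Filled points are bright probes, which stay within 0.29 of the line, and the 5 named open points are dim probes on the other side of the threshold from their leading probe.

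Promoters were read because nuclear respiratory genes are known to share binding sites of NRF1, of GABP (an ETS factor also called NRF2) and of YY1. RefSeq promoters (GRCm38.p6, 250 bases before to 50 after the start of transcription) were matched for 77 of 94 members, with 83 promoters. Letters were searched on both strands: GCGCA, any base, then GCGC for NRF1; CCGGAAG for GABP; and AAGATGGC for YY1, which contains the letters of a start codon. Matches of different motifs overlapped in 0 of 83 promoters. The NRF1 letters were in 20.5% of the members' promoters, 9.68% of those of all tested genes and 4.60% of all promoters. The GABP letters were in 28.9%, 16.8% and 8.86%, and the YY1 letters in 14.5%, 4.41% and 2.75%. Any of the 3 was in 55.4%, 27.5% and 14.7%. By complex, a match was held by 16 of 31 promoters of complex I, 3 of 3 of complex II, 3 of 4 of complex III, 3 of 13 of complex IV, 11 of 17 of complex V and 10 of 15 of the assembly factors. A match is a description of the letters and not of binding.

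The promoters of 4 members are shown as the 250 bases upstream of the start site, 5′ to 3′ on the strand of the gene, with matches in capitals. They stand for a gene that rose with no match (Ndufv3, chr17:31519865-31520114, plus strand), one that fell with a GABP match 102 bases upstream (Atp5e, chr2:174464102-174464351, minus strand), and members that did not pass with a GABP match 27 bases upstream (Ndufs3, chr2:90904722-90904971, minus strand) or with NRF1 and GABP matches 79 and 46 bases upstream (Sdhd, chr9:50603850-50604099, minus strand).
Ndufv3: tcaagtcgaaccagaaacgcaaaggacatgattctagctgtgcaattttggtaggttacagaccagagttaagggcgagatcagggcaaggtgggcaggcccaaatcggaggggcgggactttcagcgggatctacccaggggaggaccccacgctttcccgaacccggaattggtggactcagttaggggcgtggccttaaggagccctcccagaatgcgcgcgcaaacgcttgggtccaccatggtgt
Atp5e: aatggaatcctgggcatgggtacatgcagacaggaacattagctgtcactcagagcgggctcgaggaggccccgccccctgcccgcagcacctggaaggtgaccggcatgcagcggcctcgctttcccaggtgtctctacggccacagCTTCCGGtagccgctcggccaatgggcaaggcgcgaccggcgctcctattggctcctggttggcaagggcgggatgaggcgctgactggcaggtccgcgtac
Ndufs3: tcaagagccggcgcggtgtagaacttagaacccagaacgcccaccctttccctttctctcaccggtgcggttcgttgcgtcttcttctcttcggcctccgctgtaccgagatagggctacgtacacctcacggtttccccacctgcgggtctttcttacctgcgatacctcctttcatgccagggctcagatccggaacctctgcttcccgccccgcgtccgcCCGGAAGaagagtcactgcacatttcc
Sdhd: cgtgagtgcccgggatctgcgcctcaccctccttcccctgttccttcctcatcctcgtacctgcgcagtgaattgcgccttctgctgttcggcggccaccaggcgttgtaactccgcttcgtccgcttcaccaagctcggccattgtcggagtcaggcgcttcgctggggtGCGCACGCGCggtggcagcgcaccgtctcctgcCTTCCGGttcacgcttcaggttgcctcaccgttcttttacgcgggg
Among tested members with a matched promoter, the 43 with any of the 3 motifs had a median change of 0.03 with 2 past the test, and the 30 without had a median of -0.02 with 3 past the test.

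The genes around the respiratory chain were read from lists made with earlier results of these data known. The shares past the test given for these lists stand beside 25.5% of all tested genes. Of 20 tested assembly factors outside the symbol rule, 1 rose and 0 fell (5% past the test, median 0.02). The riser was Tmem126b, a complex I assembly factor, which read 211 and 248 against 350 and 366, a change of 0.72 ± 0.15 (SE, adjusted p = 0.0169; 0.111 without wild type 1). Taco1, a translational activator of a mitochondrially encoded complex IV subunit, read 22297 and 20922 in wild type and 4782 and 12296 in knockout islets. Both knockout arrays were lower but far apart, and -1.54 ± 0.45 did not pass (adjusted p = 0.0505). Taco1 did pass without knockout 1 (-0.78, adjusted p = 0.0232), without knockout 2 (-2.29, adjusted p = 0.000782) and with the replicate block (adjusted p = 0.0266). Of 16 tested electron carriers, coenzyme Q enzymes and carriers around the chain, 1 rose and 0 fell (6.25% past the test, median 0.01). Coq7 rose (0.50, adjusted p = 0.0317), and Etfdh had a change of 0.43 (adjusted p = 0.120). Coq7 was past the test only with all 4 arrays, with an adjusted p of 0.0575 to 0.181 when 1 was dropped.

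Of 15 tested genes of the citric acid cycle and pyruvate dehydrogenase, 0 rose and 1 fell (6.67% past the test, median 0.06). Fh1, the fumarase that takes up the product of complex II, read 2801 and 3210 in wild type and 2235 and 1510 in knockout islets and fell by 0.93 ± 0.19 on the log2 scale (adjusted p = 0.0171). Both knockout arrays were below both wild type arrays, but the call of Fh1 ended without wild type 1 (adjusted p = 0.0811), without wild type 2 (0.0997) and with median scaling (0.0607). Idh2, the mitochondrial NADP-dependent isocitrate dehydrogenase, had a change of 0.43 (adjusted p = 0.0655).

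Of 9 tested regulators of mitochondrial biogenesis 1 rose and 0 fell (11.1% past the test, median 0.18). Gabpa, the DNA-binding subunit of GABP, read 113 and 136 against 188 and 176 and rose by 0.93 ± 0.20 (adjusted p = 0.0194; 0.0851 without wild type 1 and 0.0578 without knockout 1), while Polg2, an accessory subunit of the mitochondrial DNA polymerase, had a change of 0.44 (adjusted p = 0.0983). Of 70 tested mitochondrial ribosomal protein genes 1 rose and 2 fell (4.29% past the test, median -0.10). Mrps12 read 3582 and 3707 against 10531 and 7408 and rose by 1.18 ± 0.18 (adjusted p = 0.00699; 0.0528 without wild type 2). Mrpl12 and Mrpl21 each had a change of -0.52, past the test (adjusted p = 0.0331 and 0.0319). Both calls ended when either wild type array or knockout 1 was dropped (adjusted p = 0.0850 to 0.187) and with median scaling (-0.21 each).

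Of 10 tested genes known to be induced by hypoxia 1 rose and 2 fell (median -0.04). That is 30% of the list, near the 25.5% of all tested genes that passed. Ldha, the lactate dehydrogenase subunit that mature beta cells keep low, read 264 and 313 in wild type and 179 and 140 in knockout islets and fell by 1.24 ± 0.20 (adjusted p = 0.00814; 0.0614 without wild type 2). P4ha1 also fell, by 0.50 (adjusted p = 0.0295), but not when 1 of the 4 arrays was dropped (0.0526 to 0.149) or with median scaling (-0.25, 0.276). Egln1, an oxygen sensor, rose by 0.72 (adjusted p = 0.0166; 0.109 without wild type 1). On the same arrays the summed lymphocyte markers were 1308 to 1662 in knockout islets against 15229 to 16057 in wild type islets, and their part in these values was not tested.

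The lower share of calls in the members was seen under each processing tried. Over the reported processing and 13 alternatives, between 1.15% and 16.1% of the tested members passed, and between 9.66% and 32.8% of all tested genes. The members' share was below that of all tested genes in 14 of 14. Leaving out wild type 1 or wild type 2 ended the calls of all members but Uqcrq, and also most calls over all tested genes.

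**Figure D5:**
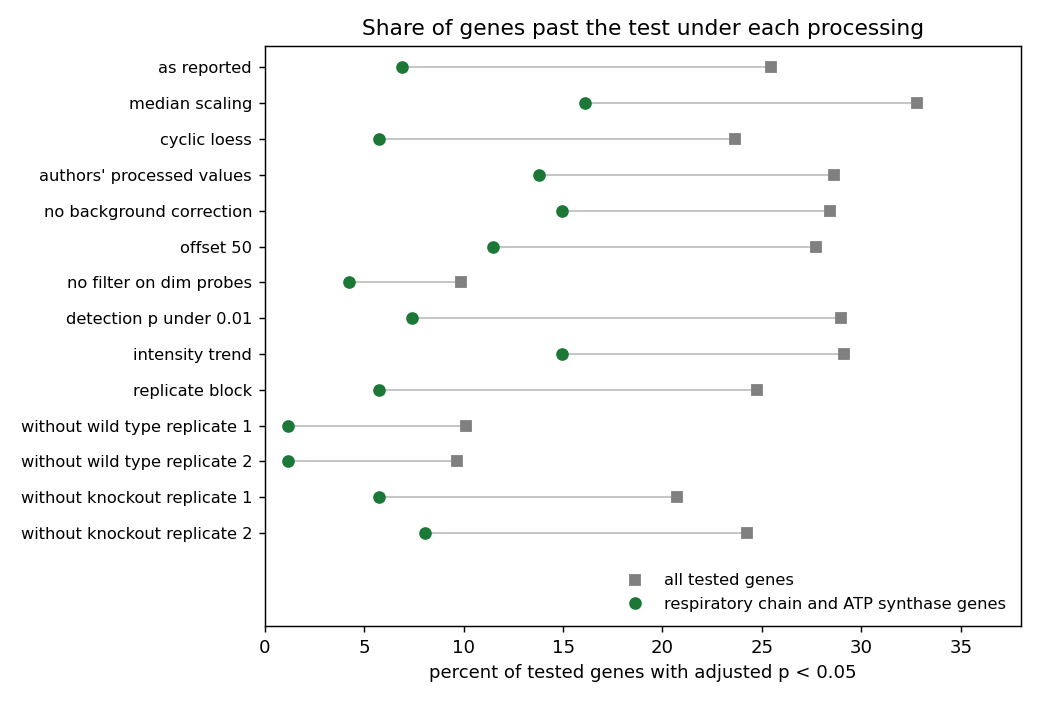
Percent of tested genes with an adjusted p below 0.05 (horizontal axis) for the respiratory chain and ATP synthase genes (circles) and all tested genes (squares) under the reported processing and 13 alternatives (1 row each). The circle lies left of the square in all 14.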

How the data were processed

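Per the file headers, the scanner output deposited by the authors gives 46632 probes a mean intensity over their beads (linear scale), its standard error, a bead number and a detection p-value on each array. The authors' processed table holds log2 values of 46614 of these probes. Its column of wild type 1 equals log2 of the raw intensity, and the others keep the raw order; the software and normalization are not given in the sources used here, nor is the centring beyond medians of 6.34 to 6.35.

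Background was corrected with normexp through the detection p-values (offset 16), followed by log2 and quantile normalization, in limma 3.58.1 and R 4.3.3. A probe was tested with a detection p below 0.05 on both arrays of a genotype. All 15639 such probes were fitted with lmFit and eBayes (6.24 degrees of freedom), knockout against wild type, and adjusted by Benjamini-Hochberg over all of them at 0.05. The fit was tested on simulated data. The offset shrinks changes of dim probes. A probe not well above background in a genotype was given as a bound against the higher of its own value and the lowest detected value per array. This bound compares means and holds no sampling error.

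Platform annotation named 29965 probes by 1 symbol and 10 by several, and 16657 were unlisted. All 94 member symbols matched RefSeq (GRCm38.p6). The brightest tested probe stood for a gene. The tested probes of replicate arrays differed beyond 1.96 bead standard errors in 26.8% (wild type) and 35.9% (knockout).

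The members and gene lists were chosen with earlier results of these data known. Named were members past the test, Sdha to Sdhd, the 2 largest rises and falls per complex, isoform families, genes with discordant probes, Bmpr1a and, per list, up to 4 genes past the test or the 2 largest changes. Members named beyond that complete a count or stand for a subunit group and were chosen after their values were seen. Other normalizations, background corrections, filters, the authors' values, an intensity trend, the replicate block and leaving out each array were alternatives.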

Additional observations from a re-analysis of the deposited data

How the results depend on the processing

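Over the named genes and alternatives, 629 of 723 values kept their side of the threshold, 47 fell short of it and 47 newly passed. In 23 values, 10 of them with median scaling, the sign differed, and 0 of these passed limma's test under either processing. Median scaling gave 3517 higher probes over the array, 13 members higher and 1 lower, and medians of 0.25 over the members, 0.35 for assembly factors and 0.20, 0.39, 0.21, 0.24 and 0.24 for complexes I to V, where all tested genes stood at 0.25. Cyclic loess gave 1 lower member and medians of -0.044 over the members and -0.094, -0.051 and -0.025 for complexes I, IV and V. The authors' values gave 7 higher and 5 lower and a complex II median of 0.15. No background correction and the intensity trend each gave 8 higher and 5 lower, an offset of 50 gave 4 lower, and no filter gave 2 higher. The replicate block gave 1 lower member (without Atp5e), and same-numbered arrays shared only a number, with deviations correlated at 0.018. Leaving out 1 array at a time, where the lone array of a genotype is assumed to vary like the other genotype, gave 677 to 2041 higher and 787 to 1790 lower probes, 0 to 4 members higher and 1 to 3 lower, and medians of -0.025 to 0.047 over the members, 0.051 to 0.109 for assembly factors, and -0.085 to 0.0096, 0.071 to 0.135, -0.099 to -0.021, -0.0043 to 0.075 and 0.00072 to 0.091 for complexes I to V. The cause of these differences was not tested. The mean over a gene's probes and leaving out the assembly factors gave similar counts (5 and 2, 3 and 2). The small signal over background of Atp5o, Cox7b2, Ndufaf7 and Uqcrfs1 limits their values.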
